A study of Homo sapiens with 36 samples.

Results

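Chromosome 19 carries the largest set of zinc finger genes in the human genome, and this account follows the peaks called at them in a cancerous and a non-cancerous lung line. The members were the protein-coding genes of chromosome 19 in GENCODE release 44 whose symbol is ZNF and a number, with or without a final letter. There were 246 of them among the 1476 protein-coding genes of the chromosome, and 6 carried a letter (such as ZNF585A and ZNF780B). The other 1230 genes of the chromosome served as the comparison, and 3 read-through genes with ZNF symbols were left among them.

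The ChIP-seq libraries came from A549, a line derived from a lung adenocarcinoma, and from BEAS-2B (B2B), a bronchial epithelial line immortalised with SV40 and used as the non-cancerous control. The study asked which promoters, enhancers and insulators differ between the lines and where AP-1 binds. No treatment or genotype separated the samples other than the line itself, so each contrast compares 1 cancer line with 1 immortalised line. There were 36 samples, 2 for each of 18 groups, and the 13 peak lists used here each pooled the replicates of 1 target in 1 line: RNA polymerase II (pol II), H3K4me3, JunB, Jun and JunD in both lines, and H3K27ac, CTCF and Rad21 in B2B.

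C2H2 zinc fingers are short loops held by a zinc ion, and strings of them read DNA sequence. Most zinc finger proteins of chromosome 19 also carry a KRAB box, which recruits the corepressor TRIM28 and, through it, the H3K9 methyltransferase SETDB1 and the HP1 proteins, and many silence transposable elements. The genes arose by tandem duplication and lie in clusters, with the fingers encoded in the last exon. H3K4me3 marks active or poised starts, H3K27ac active promoters and enhancers, and pol II the transcribing polymerase. CTCF and the cohesin subunit Rad21 hold chromatin loops.

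Of the 246 members, 245 had at least 3 C2H2 fingers in the protein of the canonical transcript, and the median was 12 fingers (quartiles 9 and 15, range 1 to 36). A KRAB box pattern was found in 208 (84.6%), against 28 of the 1230 other genes (2.28%). The members' starts were CpG-rich: the ratio of observed to expected CpG within 500 bp of the canonical start had a median of 0.71 (quartiles 0.61 and 0.76), and 194 of 246 reached 0.6. The other genes had a median of 0.65 but a far wider spread (quartiles 0.34 and 0.79), and 699 of 1230 reached 0.6.

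RefSeq promoters (GRCh38.p14; 250 bases before to 50 after the start, the first entry of each gene) were matched for 216 members. The 3 printed here stand for the 3 main H3K4me3 classes described below, each with a CG count at the median of its class, and CG dinucleotides are in capitals. ZNF175 (chr19:51571033-51571332, plus strand) had start peaks of H3K4me3 in both lines and holds 22 CG. ZNF793 (chr19:37506689-37506988, plus strand) was marked only in B2B and holds 16. ZNF492 (chr19:22634074-22634373, plus strand) was marked in neither line and also holds 16.
ZNF175: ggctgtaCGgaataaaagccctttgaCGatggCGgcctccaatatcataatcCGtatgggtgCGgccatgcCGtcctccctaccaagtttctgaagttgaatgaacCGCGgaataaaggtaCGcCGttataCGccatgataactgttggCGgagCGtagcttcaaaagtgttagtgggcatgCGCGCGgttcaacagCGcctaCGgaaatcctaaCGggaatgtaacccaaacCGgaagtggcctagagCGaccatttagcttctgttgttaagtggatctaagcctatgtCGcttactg
ZNF793: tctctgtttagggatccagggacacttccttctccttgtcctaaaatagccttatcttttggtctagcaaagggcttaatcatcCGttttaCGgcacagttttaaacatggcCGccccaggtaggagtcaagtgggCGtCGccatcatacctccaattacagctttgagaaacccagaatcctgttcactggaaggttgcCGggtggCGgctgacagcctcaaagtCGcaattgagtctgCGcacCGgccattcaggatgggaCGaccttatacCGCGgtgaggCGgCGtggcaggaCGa
ZNF492: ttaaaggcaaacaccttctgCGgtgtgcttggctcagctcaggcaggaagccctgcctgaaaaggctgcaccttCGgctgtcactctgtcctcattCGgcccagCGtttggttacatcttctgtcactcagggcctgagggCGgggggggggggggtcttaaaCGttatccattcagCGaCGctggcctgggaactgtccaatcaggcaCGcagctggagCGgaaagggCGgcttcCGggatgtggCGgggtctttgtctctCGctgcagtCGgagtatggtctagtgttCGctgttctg

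Of 7 short motifs searched, 3 were more frequent in the members' promoters than in those of the other chromosome 19 genes with intervals that did not overlap. The ETS-type heptamer CCGGAAG, on either strand, was found in 98 of the 216 member promoters (45.4%, 95% Wilson interval 38.9 to 52.0), in 13.0% of 951 promoters of the other chromosome 19 genes and in 10.7% of 27326 RefSeq promoters of all kinds of genes. The ZNF143-type motif was found in 11.6% of member promoters and 0.886% of all promoters. CCAAT was found in 53.7% of member promoters and 35.7% of all, and among members in 47.2% of 144 promoters marked in both lines and 72.3% of 47 marked in B2B only. The other 4 motifs (the AP-1 heptamer given below and CRE-type, YY1-type and NRF1-type motifs) were in 2.31% to 6.48% of member promoters and in 2.21% to 5.68% of those of the other chromosome 19 genes. The motifs were picked after some promoters had been read, and related genes share promoter sequence by descent, so the members are not independent of one another.

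A start peak is a peak that overlaps the 1 kb to either side of any annotated start of a gene. H3K4me3 start peaks were found at 162 of 246 members in A549 (65.9%, 95% Wilson interval 59.7 to 71.5), where the share over all protein-coding genes of the chromosome was 69.4%. In B2B they were found at 213 (86.6%, 81.8 to 90.3), where that share was 61.8%. The members thus stood 29.8 percentage points above the other genes in B2B (Newcombe interval 24.2 to 34.4) and 4.31 points below them in A549, an interval that includes 0 (-10.9 to 1.91). The intervals cover counting error only and treat genes as independent, although 59 members had the start of another gene inside their window. Replicates had been merged before peaks were called, so no difference here carries a replicate error and no test between replicates could be run.

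Pol II showed the same order. It was called at 148 member starts in A549 (60.2%, 53.9 to 66.1), where 65.6% of all genes of the chromosome had a peak, and at 164 in B2B (66.7%, 60.6 to 72.3), where 46.8% did. The difference from the other genes was 23.8 points in B2B (17.1 to 30.1) and -6.50 points in A549 (-13.2 to -0.00797). The A549 interval included 0 under 6 of its 9 alternatives, with -1.46 points at canonical starts (-8.26 to 5.09). H3K27ac, scored in B2B, was found at 216 member starts (87.8%, 83.1 to 91.3; 67.0% of all genes). In B2B 163 members carried H3K4me3, H3K27ac and pol II together, 48 carried both marks without pol II, and 28 carried none of the 3. These are 66.3%, 19.5% and 11.4% of the members, against 41.8%, 14.2% and 36.1% of the other genes.

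The comparison in B2B depended on which other genes were used. With genes of both sets restricted to a CpG ratio of 0.6 or more, the B2B differences shrank to 5.57 points for H3K4me3 (-0.0987 to 10.1), 3.81 for pol II (-3.88 to 11.0) and 3.91 for H3K27ac (-1.31 to 7.98). The A549 differences grew to -21.9 points for H3K4me3 (-28.7 to -15.9) and -22.9 for pol II (-30.0 to -16.2). On either set of genes, the members stood lower relative to the other genes in A549 than in B2B.

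**Figure D1:**
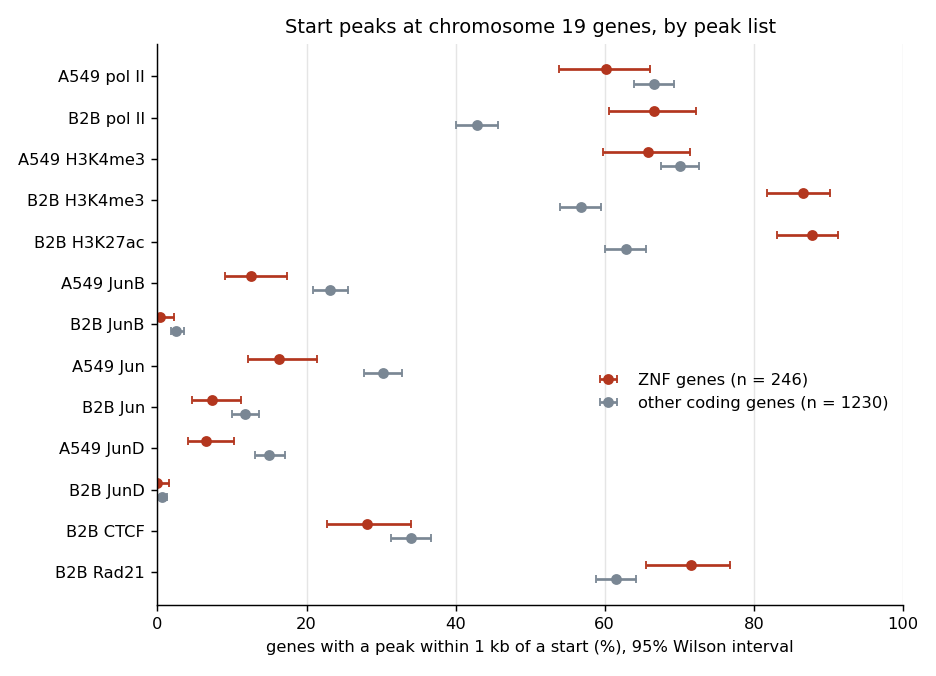
Share of genes with a peak within 1 kb of a start in each of the 13 lists, for the 246 ZNF genes of chromosome 19 and the 1230 other protein-coding genes. Points are shares in percent and bars are 95% Wilson intervals. The ZNF genes lie above the other genes for H3K4me3, H3K27ac, pol II and Rad21 in B2B and below them for each Jun-family protein in A549.

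The lines were then compared gene by gene. H3K4me3 was called at 158 member starts in both lines, at 55 in B2B only, at 4 in A549 only and at 29 in neither. Over all protein-coding genes of the chromosome, 4.74% were marked in B2B only and 12.4% in A549 only, so 55 of the 70 B2B-only genes of chromosome 19 were members. The A549 minus B2B difference was -20.7 points at the members (paired Newcombe interval -26.4 to -15.1) and 13.3 points at the other genes of the chromosome (11.2 to 15.4). The difference between those values was -34.1 points (-40.1 to -28.1). It was -27.5 points (-34.0 to -21.3) among CpG-rich starts and -34.7 (-40.8 to -28.6) when both lists were cut to the same length.

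ZNF genes of chromosomes 1 to 18 had H3K4me3 start peaks in B2B about as often as the members, at 85.7% against 86.6%. In A549 they had them more often, at 89.5% against 65.9%, and they did not share the excess of B2B-only genes. Their B2B shares of H3K27ac (87.0%) and pol II (68.1%) were also near those of the members (87.8% and 66.7%). Of 238 ZNF genes on chromosomes 1 to 18, 200 were marked in both lines, 13 in A549 only and 4 in B2B only, a difference of 3.78 points (0.272 to 7.54). For pol II, 114 members had a start peak in both lines, 50 in B2B only and 34 in A549 only, against shares over all genes of the chromosome of 4.34% and 23.1% for the single-line classes. The A549 minus B2B difference in pol II was -6.50 points at the members (-13.7 to 0.805), 23.8 at the other chromosome 19 genes (21.3 to 26.3) and 18.9 at the ZNF genes of other chromosomes (13.2 to 24.6). With both pol II lists cut to the same length, the difference at the members was -11.8 points (-18.9 to -4.50). Among the 158 members marked by H3K4me3 in both lines, pol II was the more frequent in A549, by 14.6 points (7.21 to 22.0). Of the 684 other chromosome 19 genes marked in both, 675 had pol II in A549 and 502 in B2B.

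**Figure D2:**
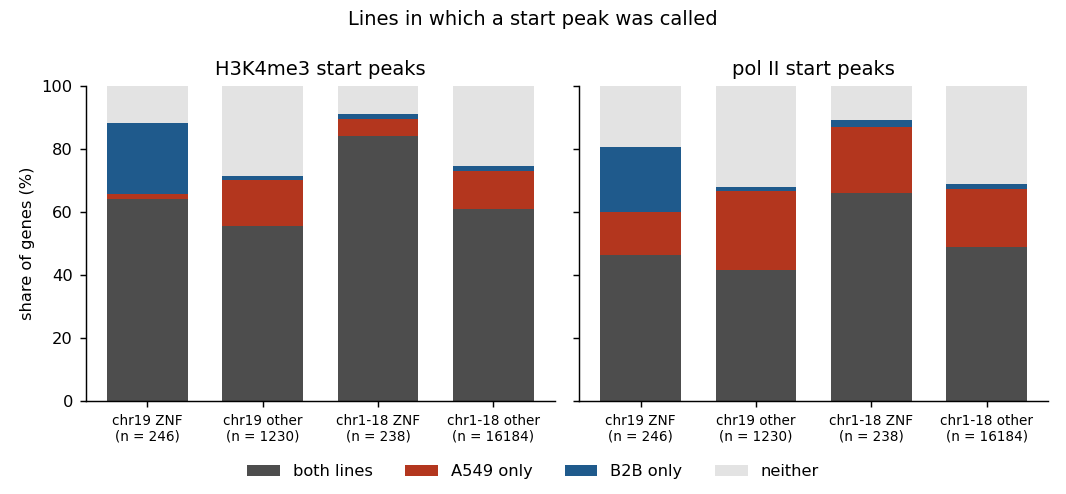
Share of genes (percent) whose start had a peak in both lines, in A549 only, in B2B only or in neither, for H3K4me3 on the left and pol II on the right. The B2B-only section is widest at the ZNF genes of chromosome 19, 55 of 246 for H3K4me3 and 50 of 246 for pol II.

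The H3K4me3 classes also differed in lists that had not defined them. Of the 55 members marked in B2B only, 44 had pol II in B2B (80.0%, 67.6 to 88.4) and 3 had it in A549 (5.45%, 1.87 to 14.9), 54 had H3K27ac in B2B and 41 had Rad21. The 15 other genes of the chromosome marked in B2B only were alike, with 12 (80.0%), 1 (6.67%), 15 and 11 in the same order. Of the 158 marked in both, 142 had pol II in A549 and 119 in B2B. Of the 29 marked in neither, 0 had pol II in A549, which allows a share of up to 10.3%, and 1 had it in B2B. The B2B-only H3K4me3 peaks had a median fold enrichment of 4.15 over the caller's local background (range 1.94 to 15.7), against 5.37 in B2B at the members marked in both. Fold enrichment is relative to the background of its own list, so its size cannot be compared between lines.

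The 8 strongest B2B-only members by fold enrichment were ZNF793 (15.7), ZNF429 (12.05), ZNF345 and ZNF790 (8.87 each), ZNF90 (8.01), ZNF880 (7.96), ZNF738 (7.01) and ZNF28 (6.88). ZNF345 and ZNF790 are divergent neighbours that share a single peak. All 8 also had pol II and H3K27ac in B2B and no pol II in A549. The B2B pol II peak of ZNF28 is shared with ZNF468. Its summit was at -35955 bp relative to the canonical start of ZNF28 and at 31 bp relative to that of ZNF468. At ZNF793 the B2B fold was 19.4 for pol II and 11.7 for H3K27ac. ZNF91, a KRAB protein known to repress SVA retrotransposons, was in the same class, with B2B folds of 6.56 for H3K4me3, 18.7 for pol II and 18.6 for H3K27ac and no A549 peak in any list. It was named after its values were seen.

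The 4 members marked in A549 only were ZNF43, ZNF536, ZNF470 and ZNF582. ZNF43 had the strongest mark, at 34.4-fold for H3K4me3 and 93.5-fold for pol II, with JunB at 7.87 and Jun at 10.5, and no peak in any B2B list. Its highest H3K4me3 peak had its summit at -15744 bp relative to the canonical start, near another annotated start. The pol II summit was at -12 bp. ZNF470 had H3K4me3 at 19.2 and pol II at 14.9 in A549 and likewise nothing in B2B. ZNF536, a gene known for expression in neurons, had H3K4me3 at 26.98 without pol II, and Rad21 in B2B at 5.12. Those summits were at -144756 and -144620 bp relative to its canonical start, near another annotated start. ZNF582, often reported as methylated in cervical cancer, was the weakest (6.47), and in B2B its start still had H3K27ac (4.50), CTCF (6.54) and Rad21 (6.86).

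The strongest H3K4me3 start peaks were at different genes in the lines. In A549 they were at ZNF324B (49.6-fold), ZNF766 (47.2), ZNF773 (46.7), ZNF765 (46.7) and ZNF805 (46.5), whose B2B folds ran from 1.81 to 5.65. In B2B they were at ZNF225 (27.3), ZNF155 (24.8), ZNF317 (21.7), ZNF350 (19.1) and ZNF573 (18.3). ZNF350, also called ZBRK1 and known as a partner of BRCA1, had a fold of 8.75 in A549. Over the 158 members with both peaks, Spearman's rho between the folds of the lines was -0.152, a description across genes that share libraries and clusters. The members' peaks were also narrower than those of other genes in A549, with median widths of 1510.5 and 1824 bp for H3K4me3 and 669.5 and 961.5 bp for pol II. In B2B they were the wider ones, at 955 and 889 bp for H3K4me3 and 348 and 325 bp for pol II.

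The members fell into 20 runs when a run was ended by a gap of 500 kb or more to the next member. The 8 runs of 10 or more genes held 222 members. In 4 of these 8 runs, the A549 count of H3K4me3 start peaks was lower than the B2B count by 6 members or more. In the run from ZNF653 to ZNF791 (chr19:11483427-12640098), 8 of 25 members were marked in A549 and 22 in B2B. In the run from ZNF101 to ZNF254 (chr19:19668796-24129968), the counts were 9 and 23 of 37. In the run from ZNF175 to ZNF331 (chr19:51571283-53580269) they were 18 and 33 of 39, and in the run from ZNF565 to ZNF573 (chr19:36182276-37817300) 20 and 26 of 26. These runs held 50 of the 55 B2B-only members.

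In the other 4 large runs the H3K4me3 counts of the lines were equal or nearly so. From ZNF575 to ZNF180 (chr19:43525497-44500524) all 23 members were marked in both lines, and from ZNF264 to ZNF446 (chr19:57191500-58481230) 38 and 40 of 43 were. The run from ZNF414 to ZNF846 had 11 of 13 in each line and that from ZNF628 to ZNF835 had 13 of 16 in each. Pol II was called at fewer members in A549 than in B2B in the 4 runs named first and at more in the other 4: 6 and 20 members in the run from ZNF653 to ZNF791, and 36 and 25 in the run from ZNF264 to ZNF446. Leaving out any single large run kept the difference between members and other genes in H3K4me3 between -37.5 and -30.1 points and that in pol II between -37.1 and -24.7 points.

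**Figure D3:**
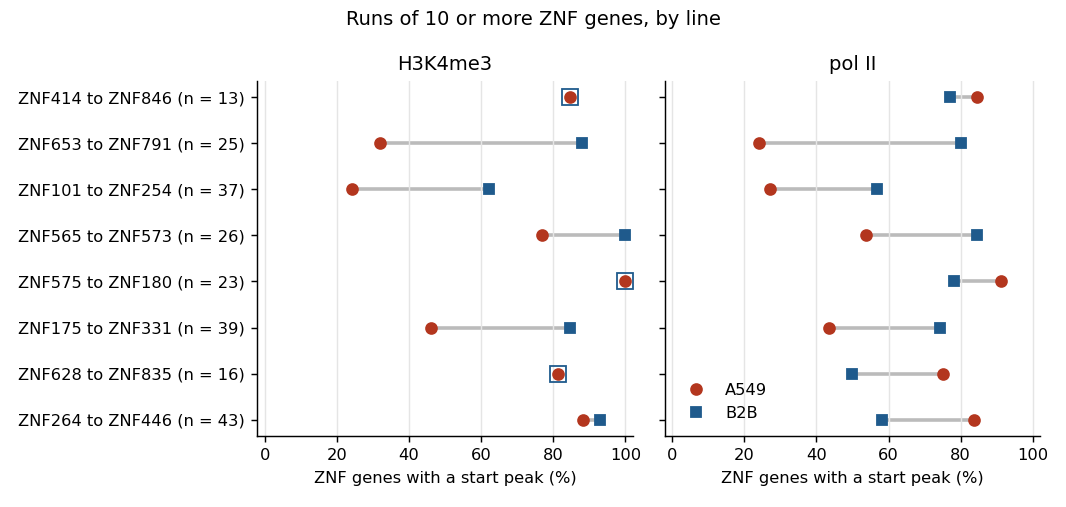
Share of ZNF genes with a start peak (percent) in each run of 10 or more members, in chromosomal order from the top, for H3K4me3 and pol II. Circles are A549 and squares are B2B, and open squares around a circle mark equal shares. A549 lies far below B2B in the runs that begin with ZNF653, ZNF101 and ZNF175.

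Members without A549 H3K4me3 lay in blocks of neighbours. The longest stretch of consecutive members without an A549 H3K4me3 peak ran from ZNF610 to ZNF816 (chr19:52336243-52962911), where 13 of 15 genes were marked in B2B and 2 in neither line. In the 12 genes from ZNF441 to ZNF625 (chr19:11767000-12156734), 9 were marked in B2B. In the 10 genes from ZNF506 to ZNF85 (chr19:19785839-20950697), 7 were. The 12 genes from ZNF208 to ZNF91 (chr19:21932958-23395471) differed, since 10 of them had no H3K4me3 in either line. Of the 55 B2B-only members, 49 stood next to another B2B-only member. The longest stretch with A549 peaks held 33 members, from ZNF540 to ZNF296. The runs and stretches were drawn after the values had been seen.

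The comparison genes inside the 8 large runs were read in the same way. They are not all of other families, since 35 of the 113 had a KRAB box or at least 3 fingers under another kind of symbol. Of the 113, 9 were marked by H3K4me3 in B2B only and 4 in A549 only, a difference of -4.42 points (-10.7 to 1.96), and all 9 of the B2B-only genes were among those 35. Of the 1117 other genes outside those runs, 6 were marked in B2B only and 175 in A549 only, a difference of 15.1 points (12.9 to 17.3). The 24 members in smaller runs had equal shares in the lines (91.7% each), although pol II was the more frequent in A549 there, at 21 against 11 members.

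**Figure D4:**
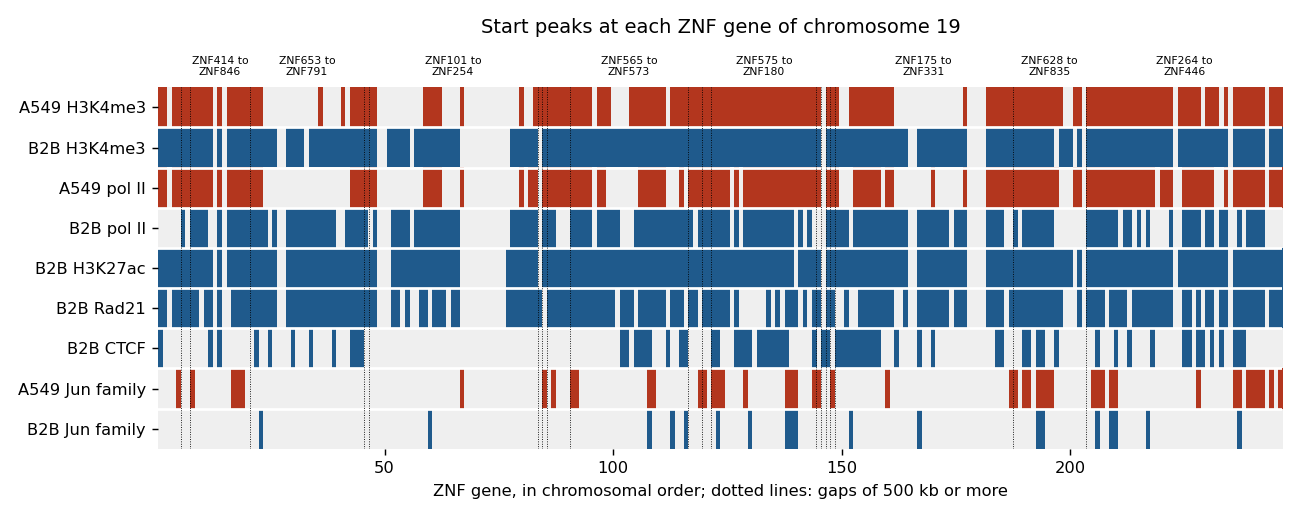
Start peaks at each of the 246 ZNF genes in chromosomal order, 1 column a gene and 1 row a list, with the 3 Jun-family lists of a line merged into 1 row. Coloured cells have a peak, red for A549 and blue for B2B, and dotted lines mark gaps of 500 kb or more between runs. Blocks of genes without A549 H3K4me3 or pol II peaks but with B2B peaks lie in the runs that begin with ZNF653, ZNF101 and ZNF175.

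Sequence and protein features followed the classes in part. Among the 52 members with a CpG ratio under 0.6, the A549 mark was at 20 (38.5%, 26.5 to 52.0) and the B2B mark at 39 (61.8 to 84.8%). Among the 194 at or above it, they were at 142 (73.2%, 66.6 to 78.9) and 174 (89.7%, 84.6 to 93.2). H3K4me3 in A549 was found at 63.0% of the 208 members with a KRAB box (56.2 to 69.3) and at 81.6% of the 38 without one (66.6 to 90.8), while in B2B the shares were 86.5% and 86.8%. Of the 55 B2B-only members, 52 had a KRAB box. By number of fingers, the A549 H3K4me3 shares were 69.4% at 10 or fewer fingers, 65.1% at 11 to 14 and 62.7% at 15 or more, with overlapping intervals, and the A549 pol II shares were 67.1%, 61.6% and 50.7%.

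Jun-family proteins, the AP-1 subunits that pair with Fos proteins, were scarce at the members. JunB was called at 31 member starts in A549 (12.6%, 9.02 to 17.3; 21.3% of all genes of the chromosome), Jun at 40 (16.3%, 12.2 to 21.4; 27.9% of all) and JunD at 16 (6.50%, 4.04 to 10.3; 13.6% of all). The differences from the other genes were -10.5 points for JunB (-14.8 to -5.24), -14.0 for Jun (-18.8 to -8.28) and -8.46 for JunD (-11.7 to -4.21). They held among genes with H3K4me3 in A549, at -13.0, -17.3 and -11.3 points, with intervals below 0. Counted together, 47 members had at least 1 Jun-family protein in A549 (19.1%), all 47 of them with H3K4me3 there, and 420 of the other genes did (34.1%), 409 of them with H3K4me3.

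In B2B, Jun was called at 18 member starts (7.32%, 4.68 to 11.3; 11.0% of all genes), JunB at 1 (2.17% of all) and JunD at 0 of 246, which allows a share of up to 1.22% (0.542% of all). No member had more than 1 Jun-family protein in B2B, where 23 of the 1230 other genes had 2 and 8 had all 3. Between the lines, 31 members had JunB in A549 only and 1 in B2B only, where the shares over all genes were 19.4% and 0.203%. For Jun, 30 had it in A549 only, 8 in B2B only and 10 in both (19.3% and 2.37% of all genes for the single-line classes), and for JunD 16 in A549 only and 0 in B2B only (13.2% and 0.203%). The A549 minus B2B difference at the members was 12.2 points for JunB (8.12 to 16.9), 8.94 for Jun (4.11 to 14.0) and 6.50 for JunD (3.60 to 10.3). The JunB list of A549 was the longer one, with 25570 peaks on chromosomes 1 to 19 against 7895, and with both cut to the same length the JunB difference was 0.813 points (-1.22 to 3.14).

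All 3 Jun-family proteins met in A549 at 11 of the 246 members and at 140 of the 1230 other genes. The 8 such members with the highest summed fold enrichment were ZNF274 (38.8), ZNF576 (29.7), ZNF547 (23.5), ZNF460 (22.5), ZNF837 (20.9), ZNF574 (18.7), ZNF628 (18.6) and ZNF766 (17.8). ZNF274, a KRAB protein known to bind the 3' exons of other zinc finger genes and to recruit SETDB1 there, reached 12.5-fold (JunB), 20.7-fold (Jun) and 5.59-fold (JunD) in A549, and 3.25-fold (Jun) in B2B. KRAB-less members carried Jun-family proteins more often: in A549, JunB was called at 16 of 38 (42.1%, 27.9 to 57.8) against 15 of 208 with a KRAB box (7.21%, 4.42 to 11.6), and Jun at 17 (44.7%, 30.1 to 60.3) against 23 (11.1%, 7.48 to 16.05). JunD was called at 10 (26.3%, 15.0 to 42.0) against 6 (2.88%, 1.33 to 6.15).

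In B2B the 8 members first by fold were ZNF573, with JunB at 8.80, and ZNF460 (7.08), ZNF227 (6.85), ZNF714 (6.06), ZNF540 (5.54), ZNF230 (5.31), ZNF233 (5.17) and ZNF613 (5.12), each with Jun. The JunB peak of ZNF573 lay 21357 bp from the canonical start, near another annotated start. The Jun peak of ZNF540 lay 17088 bp from its canonical start and that of ZNF714 2364 bp.

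The AP-1 heptamer TGACTCA, or TGAGTCA on the other strand, lay within 50 bases of the summit at 7 of the 40 members with Jun in A549 (17.5%, 8.75 to 32.0) and at 86 of 372 other genes (23.1%). In B2B it did so at 7 of 18 members (38.9%, 20.3 to 61.4) and at 62 of 144 other genes (43.1%). Of these member sites, 3 with high A549 Jun folds are printed in hg38, plus strand, with 10 bases to either side and the heptamer in capitals. All 3 lay in the first intron of the canonical transcript: ZNF274 (chr19:58183773-58183799, Jun fold 20.7), ZNF227 (chr19:44212577-44212603, 12.3) and ZNF43 (chr19:21835972-21835998, 10.5).
ZNF274: gggagtcctaTGACTCActctgggcgt
ZNF227: gtccgggaggTGAGTCAgccctgcacc
ZNF43: cgggaaggccTGAGTCAcgccacagcc

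The heptamer was found in 5 of 216 member promoters (2.31%) and in 4.92% of all RefSeq promoters. ZNF547 is shown for contrast, with its 30 CG in capitals (chr19:57363301-57363600, plus strand, GRCh38.p14). It was picked only among members with peaks of every Jun-family protein in A549. Of those with the heptamer neither in the promoter nor at the Jun summit, it had the highest summed Jun-family fold in A549. A missing heptamer says only that these letters are not in the window. The printed ZNF547 promoter does hold TGACGTCA, the CRE-type motif among those searched above.
ZNF547: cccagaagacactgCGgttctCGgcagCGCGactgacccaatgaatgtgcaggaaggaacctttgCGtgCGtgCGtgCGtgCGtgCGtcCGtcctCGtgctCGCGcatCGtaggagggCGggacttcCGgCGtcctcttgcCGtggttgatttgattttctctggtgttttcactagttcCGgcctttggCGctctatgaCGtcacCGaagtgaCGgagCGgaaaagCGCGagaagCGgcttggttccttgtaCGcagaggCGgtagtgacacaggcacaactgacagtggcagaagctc

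Rad21 and CTCF parted at the members, and also at the ZNF genes of chromosomes 1 to 18. Those genes had B2B shares of 81.9% for Rad21 and 35.3% for CTCF, where the non-ZNF genes there had 65.6% and 39.6%. Rad21 was called in B2B at 176 member starts (71.5%, 65.6 to 76.8; 63.2% of all genes of the chromosome) and CTCF at 69 (28.0%, 22.8 to 34.0; 33.0% of all). The members stood 10.0 points above the other genes for Rad21 (3.49 to 15.9) and 5.93 below for CTCF, an interval that includes 0 (-11.8 to 0.527). Among genes with H3K4me3 in B2B the Rad21 difference reversed, to -9.81 points (-15.9 to -4.50), and the CTCF difference was -17.0 (-24.0 to -9.55). Of the members with Rad21, 51 also had CTCF (29.0%, 22.8 to 36.1), where 49.8% of the other genes with Rad21 did (46.3 to 53.4). Of the 125 members with Rad21 and no CTCF, 122 had H3K4me3 in B2B, as did 313 of 380 such other genes.

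The 5 members with both proteins and the highest CTCF folds were ZNF649 (31.7), ZNF865 (27.1), ZNF20 (23.1), ZNF585B (21.6) and ZNF491 (19.2). Rad21 at these genes ranged from 6.10 to 15.4. ZNF649, ZNF20 and ZNF491 were marked by H3K4me3 in B2B only. The highest CTCF fold at any member, 76.0 at ZNF350, came without Rad21.

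Peaks at the 3' ends were then counted, within 1 kb of the end of the canonical transcript. Pol II was found there at 17 of 246 members in A549 (6.91%, 4.36 to 10.8; 26.3% of all genes of the chromosome) and at 1 in B2B (0.407%; 5.96% of all). CTCF was found at 3 (1.22%; 10.2% of all) and Rad21 at 5 (2.03%; 12.5% of all). The differences from the other genes were -23.3 points for A549 pol II (-26.9 to -18.6), -6.67 for B2B pol II (-8.27 to -4.40), -10.8 for CTCF (-12.9 to -7.95) and -12.6 for Rad21 (-15.0 to -9.37). Restricted to 3' ends clear of every start window of a protein-coding gene, the A549 pol II shares were 11 of 219 members (5.02%) and 156 of 753 other genes (20.7%). That is a difference of -15.7 points (-19.4 to -11.1).

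The highest pol II peak in A549 and the only one in B2B were at an end that has the start of another gene in the window. The highest Rad21 peak (ZNF653) and the highest CTCF peak (ZNF574) were at ends clear of starts of protein-coding genes. At ZNF766, with pol II at 76.9-fold in A549 and 4.87-fold in B2B and Rad21 at 11.9, the peaks were the start peaks of the neighbouring ZNF480. In A549 it was followed by ZNF628 (35.9), ZNF324 (35.8), ZNF653 (20.9) and ZNF580 (20.5), and these 4 were the other members with Rad21 at the 3' end, at 3.78, 4.81, 13.3 and 3.77. The peaks at ZNF324 were the start peaks of ZNF446, and the windows of ZNF628 and ZNF580 also held another gene's start. ZNF653 thus had the highest A549 pol II peak at an end clear of starts of protein-coding genes. That end also had H3K4me3 in A549, at 22.9, a mark of starts. Whether a start outside the protein-coding genes lies there was not tested. CTCF was at the 3' ends of ZNF574 (14.7), ZNF653 (7.34) and ZNF575 (4.84).

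Within gene bodies, peaks that touched no start window of a protein-coding gene were also thin at the members. A549 pol II had 9.84 such peaks per Mb of member genes (74 peaks in 7.52 Mb) and 35.7 per Mb of the other genes. The member peaks lay in 29 genes (11.8%), where 349 of the other genes (28.4%) had such a peak. Of the 74, 28 lay over a last exon, as did 186 of the 964 at the other genes. B2B H3K27ac had 2.53 and 31.7 per Mb, and A549 H3K4me3 0.798 and 11.2. B2B H3K4me3 differed less, at 1.20 and 2.15 per Mb, and B2B Jun at 4.79 and 11.9.

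**Figure D5:**
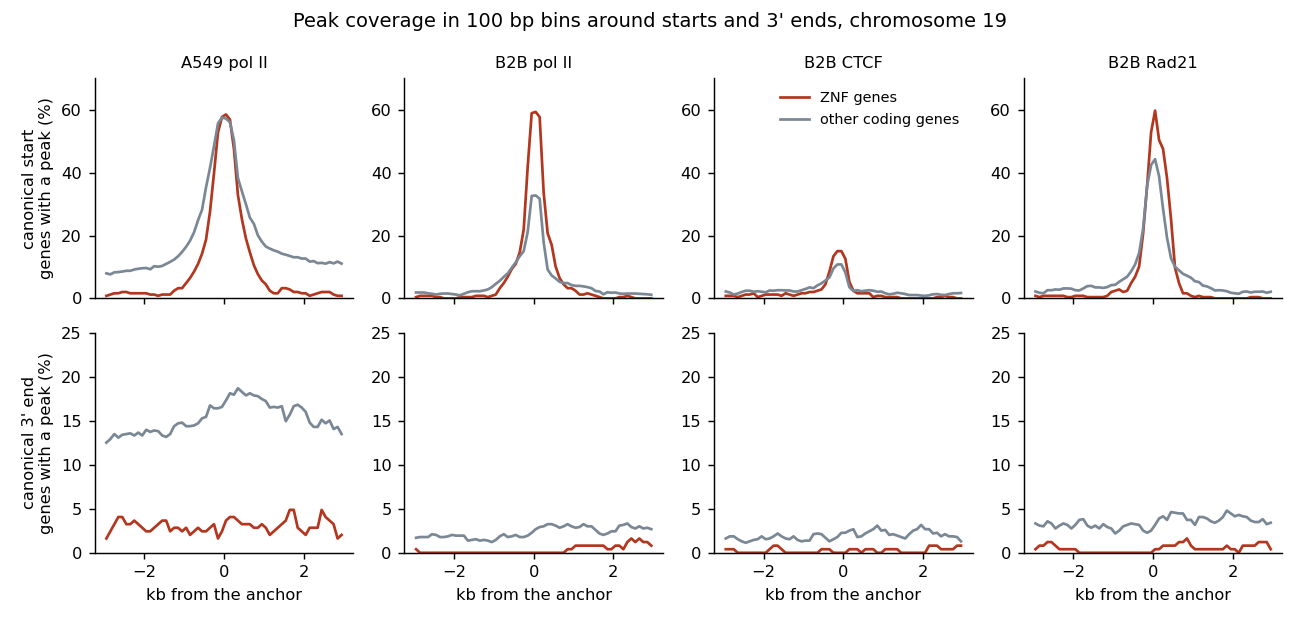
Share of genes (percent) with a peak over each 100 bp bin from 3 kb before to 3 kb after the canonical start (top) and 3' end (bottom), for the 246 ZNF genes and the 1230 other genes, in the direction of transcription. Vertical scales differ between the rows. At starts the A549 pol II curves reach 58.5% and 57.6% at their highest but the curve of the ZNF genes is the narrower, and at 3' ends it stays at or below 4.88%, where that of the other genes reaches 18.7%.

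The silencing partners of KRAB zinc finger proteins were marked in both lines. A list of 20 genes, among them TRIM28, SETDB1, the HP1 genes CBX1, CBX3 and CBX5, and the HUSH complex gene MPHOSPH8, had H3K4me3 start peaks at 20 of 20 in A549 and in B2B. Pol II was called at 17 of the 17 that the A549 list reaches (it ends on chromosome 20) and at 19 of 20 in B2B. Over the non-ZNF genes of chromosomes 1 to 18, the H3K4me3 shares were 73.2% in A549 and 62.3% in B2B. The pol II shares there were 67.5% and 50.2%. Jun was called at 7 of 20 in A549 and 4 of 20 in B2B, near its shares over the non-ZNF genes of chromosomes 1 to 18 (33.0% and 17.6%). TRIM28, which lies on chromosome 19 and is no member, had A549 folds of 108 for pol II, 44.5 for H3K4me3, 11.0 for JunB, 24.3 for Jun and 5.59 for JunD, and B2B folds of 6.20 for pol II and 3.85 for H3K4me3 with no Jun-family peak.

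As a check of the line labels, H3K4me3 start peaks were found at 4 of 6 simple epithelial marker genes and 3 of 3 mesenchymal ones in both lines, and at 0 of 2 leukocyte and 0 of 2 endothelial ones. These counts were equal in the lines and do not tell them apart. Among lung lineage markers, NKX2-1 had such a peak in both lines, SFTPC in A549 only and SFTPB in neither. Of the 3 basal airway markers, TP63 had one in A549 (6.10-fold) and none in B2B, and KRT5 and KRT14 had none in either line. CDKN2A, which is deleted in A549, had no peak in A549 and a fold of 10.7 in B2B. The lists held from 60 to 2979 peaks on chromosome 19, the fewest in B2B JunD, and their read depth was not given.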

How the data were processed

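ChIP-seq reads of 13 target and line pairs were used in the form of the authors' peak lists. Per the methods of the study and the submitters' processing notes, the authors aligned reads to hg38 with Bowtie2 2.4.4, removed duplicates, merged the 2 replicates, scaled coverage to CPM (SAMtools 1.13) and ran the peak caller MACS2 2.2.7.1. Mapping filters, the control and the caller's options were not given in the sources used here, and reads of near-identical zinc finger genes may have been placed among copies. Each deposited list gives a score per peak, a fold enrichment ratio over local background, and −log10 p-values and q-values. The q-value was used for thresholds, and the p-value to rank peaks where lists were cut to equal length. The deposited lists reach down to a −log10 q-value of about 2. Another 3 lists, without peaks on chromosome 19, were not used here.

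Peaks were intersected (minimum overlap 1 bp) with GENCODE release 44 genes in Python 3.11.15 with numpy 2.4.6, pandas 2.3.3 and scipy 1.17.1. The calls at member starts were the same as those of bedtools 2.31.1. Fold enrichment is that of the highest overlapping peak. Shares carry 95% Wilson intervals, and differences Newcombe intervals, paired between lines, whose coverage was tested on simulated data. With 1 pooled list per line and target, no p-value was computed. A count of 0 is given with the share that 3 counts allow. C2H2 fingers and KRAB boxes were matched as sequence patterns in canonical coding sequences translated from hg38, in place of RefSeq proteins, so that a degenerate KRAB box is missed. Named genes were those highest by fold in each class, as listed for each class, plus TRIM28 and ZNF274. ZNF91 and the genes that bound runs and stretches fall outside that rule and were named after their values were seen. The members, gene lists and classes were chosen with earlier results of these data known. Alternatives were a −log10 q of at least 5, windows of 500 bp and 3 kb, canonical starts, summits, lists of equal length, unshared starts, marked genes only and, added after seeing the data, CpG-rich starts and leaving out runs. One further Jun site is not reported here.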

Additional observations from a re-analysis of the deposited data

Results flagged for a closer look

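The A549 minus B2B difference in the share of starts with a peak was not the same at the zinc finger genes of chromosome 19 and at the other genes of the chromosome, and the interval of the difference between the differences left out 0 for all 5 targets. It was -34.1 percentage points for H3K4me3 (-40.1 to -28.1) and -30.3 for pol II (-37.9 to -22.6). For the Jun family it was -8.37 for JunB (-13.1 to -3.13), -9.59 for Jun (-15.0 to -3.96) and -7.80 for JunD (-11.4 to -3.54). For H3K4me3 the sign at the members was the opposite of that at the other genes, and for the Jun family both were higher in A549 and the members less so. In B2B, JunB (0.407% of members, 2.52% of other genes) and JunD (0% and 0.650%) were near 0 in both sets. With lists of equal length the JunB difference at the members was 0.813 points (-1.22 to 3.14). The Jun-family differences between differences were not run on such lists. The intervals rest on genes counted once in pooled lists, so they hold no error between replicates.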

How the results depend on the processing

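Of 188 alternative values over 24 results, 146 stayed within the counting interval of the reported value and the rest moved further. The sign differed in 5, and of the 156 alternatives to the 20 results whose interval left out 0, 130 kept their sign with an interval off 0. All values here are percentage points, members minus other genes unless stated. For Rad21 in B2B the sign turned, to -9.81 among genes with H3K4me3 in the same line and to -10.2 among CpG-rich starts. CpG-rich starts, an alternative chosen after seeing the data as was leaving out runs, gave -22.9 (pol II), -21.9 (H3K4me3), -18.6 (JunB), -25.2 (Jun) and -14.5 (JunD) in A549, 3.81 (pol II), 5.57 (H3K4me3), 3.91 (H3K27ac) and -14.3 (CTCF) in B2B, and -27.5 for the difference between the lines in H3K4me3. Marked genes alone gave, in B2B, 2.99 (pol II), 0.492 (H3K27ac), -3.25 (JunB), -8.29 (Jun) and -17.0 (CTCF). Starts with no other gene in the window gave 34.7 for B2B H3K4me3, and canonical starts gave 29.5 for H3K27ac and, with the sign turned and intervals that include 0, 1.46 for CTCF and 0.244 for A549 H3K4me3. The 3 kb window gave -15.3 (JunB) and -19.9 (Jun) in A549, and -3.82 (JunB), -8.78 (Jun), -1.63 (JunD), -15.8 (CTCF) and 3.25 (Rad21) in B2B. Between the lines, members marked in both gave 14.6 for pol II, where the sign turned, and 18.4 for JunB, and lists of equal length gave 0.813 for JunB.

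At 3' ends, a 3 kb window gave -33.3 (A549 pol II), -12.6 (B2B pol II), -23.5 (CTCF) and -27.9 (Rad21), and the last exon -15.2, -3.90, -5.93 and -8.46 in that order. Ends clear of starts gave -15.7 (A549 pol II), -3.19 (B2B pol II) and -7.91 (Rad21), and summits -16.6 (A549 pol II). The cause of these shifts was not tested.

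No paired analysis was possible because the replicates were merged before peaks were called, which also leaves no replicate to leave out. Peak calls depend on read depth, which the lists do not give, so a missing peak is not evidence of a missing mark. Lists differed in length between lines, and fold enrichment cannot be compared between them.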
